A study of Homo sapiens with 6 samples.

Results

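The 53 genes described here act in late G2 phase and mitosis, when the duplicated chromosomes are condensed, attached to the spindle and parted. They were listed by function, with earlier results of these data known, and all 53 of the 53 names were found among the 11963 genes with an annotated probe set. The measurements came from 6 one-colour Affymetrix arrays of total RNA from U87, a human glioblastoma cell line. IRE1dn cells, 3 arrays, express a dominant negative transgene of IRE1alpha and are labelled as the single clone U87 IRE1.NCK DN. The ctrl cells, 3 arrays, are U87 cells carrying the empty plasmid, with the word clones in the plural and no clone assigned to an array. Both groups had been cultured for 16 h in DMEM with 10% serum and glutamine before RNA was taken, and the labels name no stress treatment and no synchronisation of the cell cycle. IRE1alpha is a sensor of the endoplasmic reticulum that cuts RNA under protein folding stress, and the study sought genes tied to tumour invasion and angiogenesis. The labels leave unsaid whether the replicate arrays are separate cultures. The p-values therefore rest on the spread among these 6 samples only, and that spread may be technical. Since IRE1dn is labelled as 1 clone, an effect of the transgene and a property of that clone cannot be told apart.

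Entry into mitosis is driven by cyclin B bound to the kinase CDK1, which phosphatases of the CDC25 family activate and the kinases WEE1 and PKMYT1 restrain. Polo-like and Aurora kinases then build the spindle, the kinetochore couples chromosomes to microtubules, and the checkpoint proteins hold back CDC20, the activator of the ubiquitin ligase that destroys cyclin B and securin at anaphase. In dividing cells most of these transcripts accumulate through G2, under the B-MYB and FOXM1 complexes, and are low in G1, so that their level in a whole culture reflects both the share of cells in G2 and mitosis and the transcript content of those cells. In RNA from whole cultures, fewer cells in that stage and less RNA per cell cannot be told apart.

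The promoters of such genes are known for pairs of CCAAT boxes, bound by the factor NF-Y, followed near the start of transcription by a cell cycle homology region, whose core is TTTGAA or TTTAAA. The sequences below are shown because they belong to 4 genes that fell and 4 that rose in IRE1dn cells. They were picked by hand from the 15 genes that fell or rose by the test below, and need not stand for the rest. Each is the 120 bases before the RefSeq start of the gene in GRCh38.p14, in the direction of transcription, and capitals mark TTTGAA or TTTAAA and the CCAAT boxes, on either strand. A box on the opposite strand reads ATTGG, and KIF11 holds its TTTGAA on the opposite strand.
CCNB1, chr5:69167030-69167149, plus strand: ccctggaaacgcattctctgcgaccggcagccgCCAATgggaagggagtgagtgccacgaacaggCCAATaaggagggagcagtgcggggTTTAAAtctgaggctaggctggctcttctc
CCNB2, chr15:59105026-59105145, plus strand: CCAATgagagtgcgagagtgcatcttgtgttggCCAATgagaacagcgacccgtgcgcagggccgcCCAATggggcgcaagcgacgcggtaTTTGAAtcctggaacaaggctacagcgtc
PLK1, chr16:23678769-23678888, plus strand: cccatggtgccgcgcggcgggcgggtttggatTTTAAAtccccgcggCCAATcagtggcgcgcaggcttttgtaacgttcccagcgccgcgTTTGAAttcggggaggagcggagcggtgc
CDC20, chr1:43358861-43358980, plus strand: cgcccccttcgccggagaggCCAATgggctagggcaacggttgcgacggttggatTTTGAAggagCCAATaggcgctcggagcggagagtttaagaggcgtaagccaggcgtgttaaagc
CENPF, chr1:214603075-214603194, plus strand: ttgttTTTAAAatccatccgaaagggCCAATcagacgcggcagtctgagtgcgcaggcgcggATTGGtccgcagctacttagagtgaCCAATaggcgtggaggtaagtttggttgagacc
KIF11, chr10:92593010-92593129, plus strand: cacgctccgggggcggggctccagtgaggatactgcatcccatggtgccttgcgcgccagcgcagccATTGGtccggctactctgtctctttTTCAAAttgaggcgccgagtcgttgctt
MKI67, chr10:128126424-128126543, minus strand: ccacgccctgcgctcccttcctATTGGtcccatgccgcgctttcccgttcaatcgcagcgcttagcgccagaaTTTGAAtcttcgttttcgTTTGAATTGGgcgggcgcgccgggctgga
TOP2A, chr17:40417897-40418016, minus strand: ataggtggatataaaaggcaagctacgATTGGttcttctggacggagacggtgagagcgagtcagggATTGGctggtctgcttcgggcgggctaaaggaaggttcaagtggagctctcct
The first 4 belong to genes that fell and the last 4 to genes that rose. In CCNB1 the TTTAAA begins 30 bases before the start, in CCNB2 and PLK1 a TTTGAA begins 29 bases before it, and in KIF11 28 bases before it. In CDC20 the TTTGAA begins 65 bases before the start, between CCAAT boxes at 100 and 55. In CENPF the TTTAAA begins 115 bases before it, ahead of all CCAAT boxes in the stretch shown. CCAAT boxes of CCNB2 begin 120, 87 and 54 bases before the start, and those of CCNB1 87 and 55. PLK1 and KIF11 hold a single CCAAT box in the stretch shown. In MKI67 the second TTTGAA, 29 bases before the start, shares 1 base with a CCAAT box on the other strand. TOP2A holds CCAAT boxes 93 and 53 bases before the start and no TTTGAA or TTTAAA in the stretch shown.

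Over whole RefSeq windows of 300 bases, from 250 before to 50 after the start, 60 windows were found for 45 of the 53 genes. TTTGAA or TTTAAA, searched on both strands, lay in 44 of those 60 windows (73.3%), against 24.0% of all 35116 windows. CCAAT, on both strands, lay in 43 of the 60 (71.7%), against 34.6% of all windows. Both were found in 34 of the 60 (56.7%), against 9.27% of all windows. Counted by gene, TTTGAA or TTTAAA lay in a window of 39 of the 45 (86.7%), against 27.85% of all 27305 genes. CCAAT did so in 37 of the 45 (82.2%), against 39.7%. Among the 8 genes that fell in IRE1dn cells, 6 had TTTGAA or TTTAAA, NEK2 and UBE2S having neither, and 8 had CCAAT in a window. Among the 7 that rose, 6 had a window, of which 6 had TTTGAA or TTTAAA and 5, all but SMC2, had CCAAT. The letters were thus present in genes of both directions, and a match is a description of the sequence and not a site.

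All arrays had medians of 18.4 to 21.03 signal units, and the level below which a gene was not tested was 13.0 units. All 53 genes passed that filter, and their single signals ranged from 37.9 to 1848 units, so none of them was near it. Of 9 glial and glioma markers, VIM, CD44 and SLC1A3 had a probe set above 13.0 on all 6 arrays, and GFAP, S100B, SOX2 and FABP7 stayed under 13.0 on every one. The summed signal of the list was 4749 to 7387 units in IRE1dn cells and 4386 to 4801 in ctrl cells, most of it VIM. Of 13 leukocyte, epithelial and endothelial markers on the array, only CD3E, KRT8 and PECAM1 exceeded 13.0 on any array. Their summed signals were 7.59 to 16.9, 20.3 to 34.1 and 9.32 to 11.8 units for the leukocyte, epithelial and endothelial lists in IRE1dn cells, and 4.67 to 13.3, 24.7 to 30.0 and 13.1 to 30.03 units in ctrl cells. ERN1, which encodes IRE1alpha, had 9.89, 10.5 and 12.9 units on the IRE1dn arrays and 11.0, 14.0 and 11.9 units on the ctrl arrays, so this probe set, which need not lie within the transgene, does not check the labels. ACTB, whose 3′ over 5′ ratio of signals measures RNA integrity, had ratios of 1.09, 1.21 and 1.64 on the IRE1dn arrays and 1.21, 1.16 and 1.19 on the ctrl arrays, with IRE1dn array 3 the highest.

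The 53 genes split by direction. 7 rose and 8 fell in IRE1dn cells, and 38 did not pass the threshold, an adjusted p of 0.05 in limma. The 7 that rose were CENPF, SMC2, MKI67, KIF11, TOP2A, KIFC1 and TPX2, with log2 changes of 0.64 to 1.26. The 8 that fell were CCNB1, PLK1, CDC20, UBE2S, PTTG1, HMMR, NEK2 and CCNB2, with log2 changes of -1.35 to -0.54. Changes are IRE1dn minus ctrl on the scale log2(signal + 1.75), with limma standard errors (SE) and p-values adjusted by the Benjamini-Hochberg method over all 7178 genes tested. Of all tested genes 34.4% passed, 17.9% higher and 16.5% lower, against 15 of 53 (28.3%) here, 13.2% higher and 15.1% lower. The module was therefore not called more often than the array at large. The accounts by role below describe groups of 5 to 13 genes, and differences between these groups were not tested. Its median log2 change was 0.17, beside 0.01 over all tested genes, and 34 of the 53 estimates were above 0. This median rested on single arrays, at 0.043 without ctrl array 1 and 0.28 without ctrl array 3, and was 0.096 with arrays set to equal medians. The groups did not overlap for 26 of the 53 (49.1%), 13 with all IRE1dn arrays above and 13 with all below, where 50.2% of all tested genes did not overlap, 26.0% above and 24.2% below. These shares are near each other. Separate groups in genes that did not pass are named below for some, and BUB1B, NUSAP1, CENPA and DLGAP5 also had them.

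**Figure D1:**
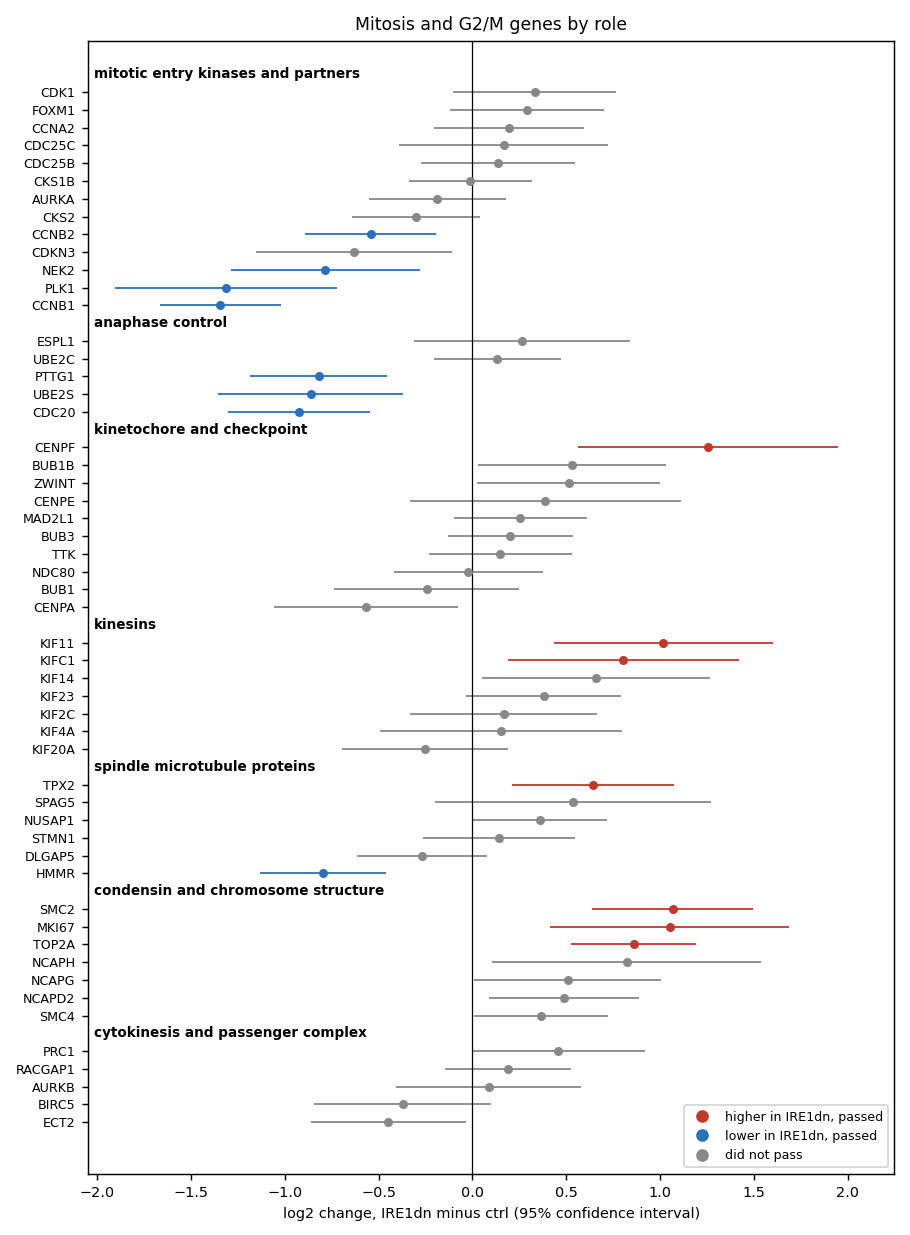
Log2 change (IRE1dn minus ctrl) of each of the 53 genes with its 95% confidence interval, grouped by role and ordered within each role, with red for genes that passed higher, blue for genes that passed lower and grey for the rest. The 8 blue points lie among the mitotic entry, anaphase control and spindle genes, and the condensin and chromosome structure genes all have estimates above 0, from 0.37 to 1.07.

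In the group of mitotic entry kinases and their partners, 4 of 13 genes fell (30.8%, against 16.5% of all tested genes) and 0 rose. The median log2 change was -0.19, but -0.071 without ctrl array 3. It was -0.30 on gene-specific probe sets. There AURKA and CDC25C dropped out under the filter, and no other estimate of the group changed. CCNB1, cyclin B1, the main activator of CDK1 at entry into mitosis, had signals of 435, 415 and 449 units on the IRE1dn arrays and 1236, 1046 and 1036 units on the ctrl arrays. Its groups were far apart, and the IRE1dn arrays were close to each other. Cyclin B1 fell by 1.35 on the log2 scale (SE 0.14; limma adjusted p = 0.000256), a signal ratio of 0.391. CCNB2, cyclin B2, the second B-type cyclin, had 422, 397 and 444 units in IRE1dn cells and 624, 536 and 692 units in ctrl cells. The groups did not overlap, and cyclin B2 fell by 0.54 (SE 0.16; limma adjusted p = 0.0239), a smaller estimate than that of cyclin B1 with a 95% interval of -0.89 to -0.19 that does not reach the interval of cyclin B1, -1.67 to -1.02. Cyclin B1 had the lowest estimate of the 53 genes. Other genes are set beside its interval here and below, and were not tested against it. The call of cyclin B2 ended when any IRE1dn array or ctrl array 3 was left out (limma adjusted p of 0.0541 to 0.112).

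PLK1, the polo-like kinase that drives entry and spindle assembly, had 66.9, 45.3 and 52.98 units in IRE1dn cells and 104, 127 and 198 units in ctrl cells. All ctrl arrays were above all IRE1dn arrays, and ctrl array 3 was the highest by a wide margin. PLK1 fell by 1.31 (SE 0.26; limma adjusted p = 0.00511). NEK2, a kinase that parts the centrosomes, had 124.8, 120.2 and 86.1 units in IRE1dn cells and 152, 187 and 237 units in ctrl cells. NEK2 fell by 0.79 (SE 0.23; limma adjusted p = 0.0237), and a further probe set gave -0.80 (limma adjusted p = 0.0353 over 10824 probe sets). The call of NEK2 ended without IRE1dn array 2 or 3.

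CDK1, the kinase that cyclin B activates, did not pass on the probe set that stands for it. There it had 1192, 765 and 1212 units in IRE1dn cells and 773, 790 and 908 units in ctrl cells, with IRE1dn array 2 below the lowest ctrl array. The log2 change was 0.33 (SE 0.19; limma adjusted p = 0.21), with a 95% interval of -0.10 to 0.77 that lies wholly above that of cyclin B1. Its other two probe sets gave another answer. The probe set ranked 2 read 617, 799 and 808 units in IRE1dn cells and 561, 432 and 391 units in ctrl cells, and the one ranked 3 read 443, 672 and 628 units in IRE1dn cells and 389, 328 and 275 units in ctrl cells. In both the groups were separate, IRE1dn array 2 was not low, and the log2 changes of 0.69 and 0.80 passed (limma adjusted p = 0.0205 and 0.0161 over 10824 probe sets). No CDK1 probe set was lower in IRE1dn cells, and whether CDK1 counts as higher depends on the probe set.

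The remaining genes of mitotic entry did not pass. CCNA2, cyclin A2, which acts from S phase to early mitosis, had a log2 change of 0.19 (95% interval -0.21 to 0.60), again above the interval of cyclin B1. CDC25B and CDC25C, the phosphatases that activate CDK1, were at 0.14 and 0.17, and FOXM1, the transcription factor of the G2/M programme, was at 0.29 (95% interval -0.12 to 0.70). AURKA, the centrosomal Aurora kinase, was at -0.19. CKS1B and CKS2, small subunits that bind CDK1, were at -0.01 and -0.30, and CDKN3, a phosphatase that inactivates CDK1, was at -0.63 (limma adjusted p = 0.0616). The signals of CKS2 and CDKN3 were lower on all IRE1dn arrays than on any ctrl array.

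Of 5 genes of anaphase control 3 fell and 0 rose (median log2 change -0.82), where 16.5% of all tested genes fell. CDC20, the activator of the anaphase-promoting complex and the target of the spindle checkpoint, had 220.2, 240.0 and 229 units in IRE1dn cells and 369, 445 and 508 units in ctrl cells. CDC20 fell by 0.92 (SE 0.17; limma adjusted p = 0.00348), and the IRE1dn arrays were close together. PTTG1, securin, which holds separase inactive until anaphase, had 821, 817 and 976 units in IRE1dn cells and 1470.5, 1331 and 1848 units in ctrl cells. Securin fell by 0.82 (SE 0.16; limma adjusted p = 0.00477), without overlap, on a single probe set that is not among the gene-specific ones. UBE2S, the enzyme that extends ubiquitin chains on substrates of the complex, had 819, 560.4 and 606 units in IRE1dn cells and 885, 1257 and 1510.1 units in ctrl cells. Its groups came close, with IRE1dn array 1 just under ctrl array 1. UBE2S fell by 0.86 (SE 0.22; limma adjusted p = 0.0150), and the call ended without IRE1dn array 2 or 3. UBE2C, which starts those chains, and ESPL1, the protease separase itself, did not pass, with log2 changes of 0.13 (95% interval -0.21 to 0.47) and 0.27 (-0.31 to 0.84). Both intervals lie above that of UBE2S, -1.36 to -0.37, that of ESPL1 only narrowly. UBE2C, ESPL1 and UBE2S were not tested against each other.

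**Figure D2:**
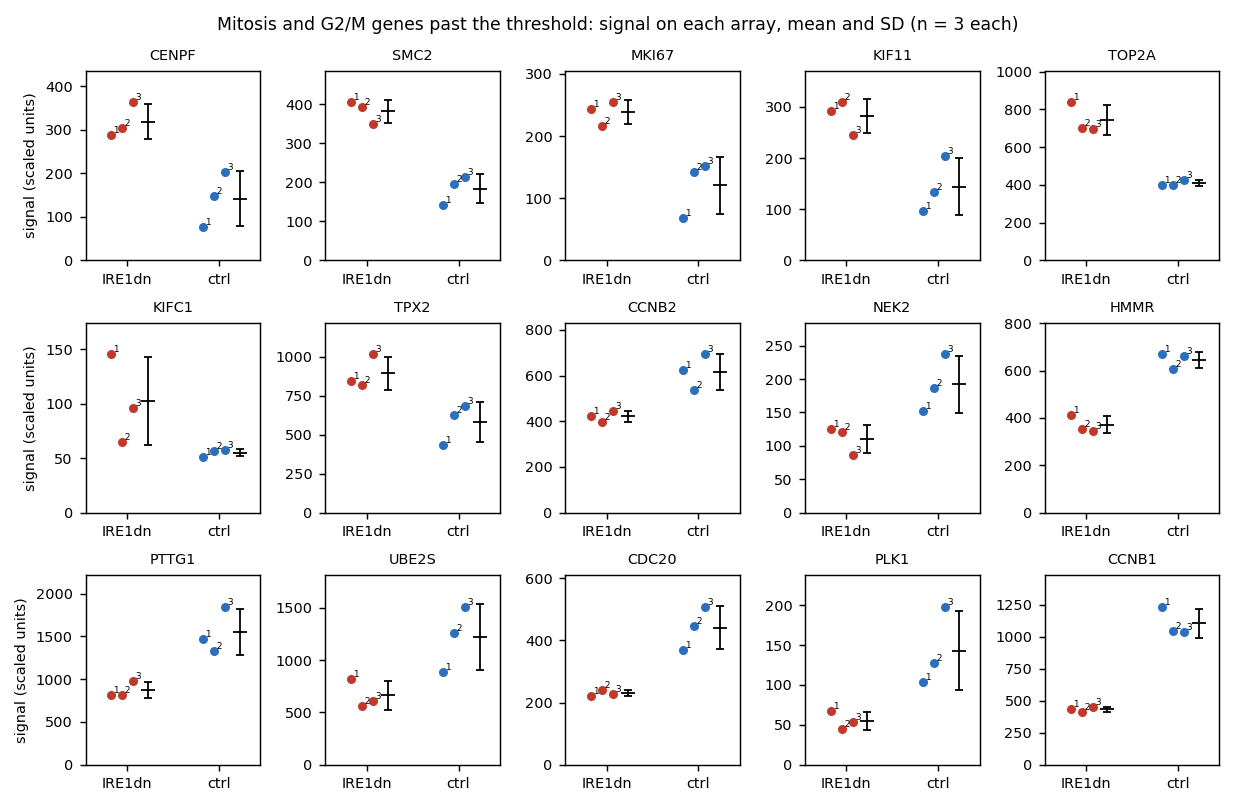
Signal in scaled units on each array (points, numbered by replicate) with the mean and SD of each group (n = 3), for the 15 genes that passed the threshold, in order of log2 change from CENPF to CCNB1. The axes start at 0, and in none of the 15 panels do the IRE1dn and ctrl points overlap. These genes were selected by the threshold on the same arrays, so their separation is no further evidence. Ctrl array 1 is the lowest ctrl point in 10 of them, and the lowest ctrl array for 40.8% of all tested genes.

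Of 10 kinetochore and checkpoint genes 1 rose (10.0%, against 17.9% of all tested genes) and 0 fell. The median log2 change was 0.23, but 0.13 without ctrl array 1. CENPF, a large protein of the outer kinetochore that is made in G2, had 287, 305 and 363 units in IRE1dn cells and 76.5, 147 and 203 units in ctrl cells. The ctrl arrays differed widely among themselves and all stayed below the IRE1dn arrays. CENPF rose by 1.26 (SE 0.31; limma adjusted p = 0.0126), and its second tested probe set rose by 1.11 (limma adjusted p = 0.0241 over 10824 probe sets). The call of CENPF ended without IRE1dn array 3 (limma adjusted p = 0.0612).

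The checkpoint kinases and their partners did not pass. BUB1, TTK and BUB1B, which sense unattached kinetochores, had log2 changes of -0.24, 0.15 and 0.53, and MAD2L1, the inhibitor of CDC20, was at 0.26. BUB3, the scaffold of BUB1, was at 0.20 on its highest probe set, while the probe set ranked 2 rose by 0.52 (limma adjusted p = 0.0329 over 10824 probe sets) and the other two did not pass (0.25 and 0.32). CENPE, a kinetochore motor, was at 0.39, NDC80, the microtubule-binding subunit of the outer kinetochore, at -0.02, and ZWINT, a scaffold there, at 0.51. CENPA, the histone variant that marks centromeres, was the lowest of this group at -0.57 (limma adjusted p = 0.0714). It passed with quantile normalization (limma adjusted p = 0.0466) and with arrays set to equal medians (limma adjusted p = 0.0403). CENPF and CENPA, the highest and lowest estimates of this group, had intervals, 0.56 to 1.95 and -1.06 to -0.08, that do not meet. They were not tested against each other.

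Of 7 kinesins, the motors that build and slide spindle microtubules, 2 rose (28.6%, against 17.9% of all tested genes) and 0 fell. The median log2 change was 0.38, but 0.24 without ctrl array 1, the lowest ctrl array for 7 of the 7. KIF11, the motor that pushes the spindle poles apart, had 292, 309 and 245 units in IRE1dn cells and 95.6, 133 and 204 units in ctrl cells. KIF11 rose by 1.02 (SE 0.26; limma adjusted p = 0.0149), and its call ended without IRE1dn array 1 or 2. KIFC1, which bundles microtubules towards the poles, had 145, 65.3 and 96.0 units in IRE1dn cells and 51.1, 56.3 and 57.4 units in ctrl cells. Here the IRE1dn arrays were the scattered ones, and array 1 alone read more than 100 units. KIFC1 rose by 0.80 (SE 0.28; limma adjusted p = 0.0469), close to the threshold. The call of KIFC1 ended in 12 of 18 alternatives, among them every single array left out except IRE1dn array 2, and the estimate was 0.52 without IRE1dn array 1.

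The other kinesins did not pass. KIF14, KIF23 and KIF20A act in the central spindle during cytokinesis, and their log2 changes were 0.66, 0.38 and -0.25. KIF2C, which depolymerises microtubules at kinetochores, was at 0.17, and KIF4A, a chromosome-bound motor, was at 0.15. KIF23 was the one of these 5 whose IRE1dn arrays all lay above its ctrl arrays, with 181, 204 and 183 units in IRE1dn cells and 119, 161 and 159 units in ctrl cells (limma adjusted p = 0.136).

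Among 6 spindle microtubule proteins 1 rose and 1 fell (median log2 change 0.25). Each share was 16.7%, near the 17.9% and 16.5% of all tested genes. TPX2, which activates AURKA on the spindle, had 846, 822 and 1016 units in IRE1dn cells and 435, 624 and 682 units in ctrl cells. TPX2 rose by 0.64 (SE 0.19; limma adjusted p = 0.0283), although its partner AURKA did not pass, and the call ended without any single IRE1dn array or without ctrl array 1. HMMR, a hyaluronan receptor that also binds the spindle, had 413, 355 and 346 units in IRE1dn cells and 668, 605 and 662 units in ctrl cells. HMMR fell by 0.80 (SE 0.15; limma adjusted p = 0.00381), and its second probe set fell by 0.60 (limma adjusted p = 0.0312 over 10824 probe sets). The intervals of TPX2, 0.21 to 1.07, and HMMR, -1.13 to -0.46, lie on opposite sides of 0. SPAG5, NUSAP1 and DLGAP5, which bind and stabilise spindle microtubules, were at 0.54, 0.36 and -0.27, and STMN1, which destabilises microtubules, was at 0.14.

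Of 7 condensin and chromosome structure genes 3 rose (42.9%, against 17.9% of all tested genes) and 0 fell. All 7 estimates were above 0 (median log2 change 0.82). TOP2A and MKI67 of this group are not condensin subunits, and SMC2 was the only subunit in it that passed. SMC2, the ATPase core shared by both condensin complexes, had 406, 392.3 and 349 units in IRE1dn cells and 142, 196 and 214 units in ctrl cells. The groups were widely separate, and SMC2 rose by 1.07 (SE 0.19; limma adjusted p = 0.00316), with a second probe set at 0.92 (limma adjusted p = 0.00462 over 10824 probe sets). TOP2A, the topoisomerase that untangles sister DNA, had 838, 701 and 694 units in IRE1dn cells and 399, 399 and 426 units in ctrl cells. TOP2A rose by 0.86 (SE 0.15; limma adjusted p = 0.00264), and a second probe set rose by 0.91 (limma adjusted p = 0.00442 over 10824 probe sets). MKI67, the Ki-67 protein that coats mitotic chromosomes and serves as a marker of dividing cells, had 244, 217 and 254 units in IRE1dn cells and 68.0, 142 and 152 units in ctrl cells. MKI67 rose by 1.052 (SE 0.29; limma adjusted p = 0.0190), and all 4 of its probe sets rose, the others by 1.22, 1.40 and 1.47. The estimate was 0.69 without ctrl array 1, with the call kept, and the call ended without IRE1dn array 1 or 3.

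The other condensin subunits among the 53 genes did not pass. SMC4, the partner of SMC2, was at 0.37 (limma adjusted p = 0.100), and the condensin I subunits NCAPD2, NCAPG and NCAPH were at 0.49, 0.51 and 0.82 (limma adjusted p of 0.0599 to 0.103). The IRE1dn arrays of SMC4, NCAPD2 and NCAPG all lay above the ctrl arrays. For NCAPH they did not, since ctrl array 3, at 126 units, was above IRE1dn array 3, at 123 units. The median of the 7 genes was 0.47 without ctrl array 1.

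None of the 5 cytokinesis and passenger complex genes passed. Their median log2 change, 0.09, had no stable sign, at -0.087 without IRE1dn array 1, -0.024 without ctrl array 1, -0.021 with array weights and 0.23 without ctrl array 3. PRC1, which bundles the central spindle, was at 0.46, RACGAP1, a GTPase regulator of the central spindle, at 0.19, and ECT2, the exchange factor that starts the contractile ring, at -0.45 (limma adjusted p = 0.0855). The ECT2 signals were 233, 216 and 198 units in IRE1dn cells and 240, 347 and 306 units in ctrl cells, without overlap. AURKB, the kinase of the chromosomal passenger complex, was at 0.09 and BIRC5, survivin, its partner, at -0.37. BIRC5 probe sets went in different directions, 2 with values below 0 (-0.37 and -0.56) and 1 above (0.37), and none passed.

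**Figure D3:**
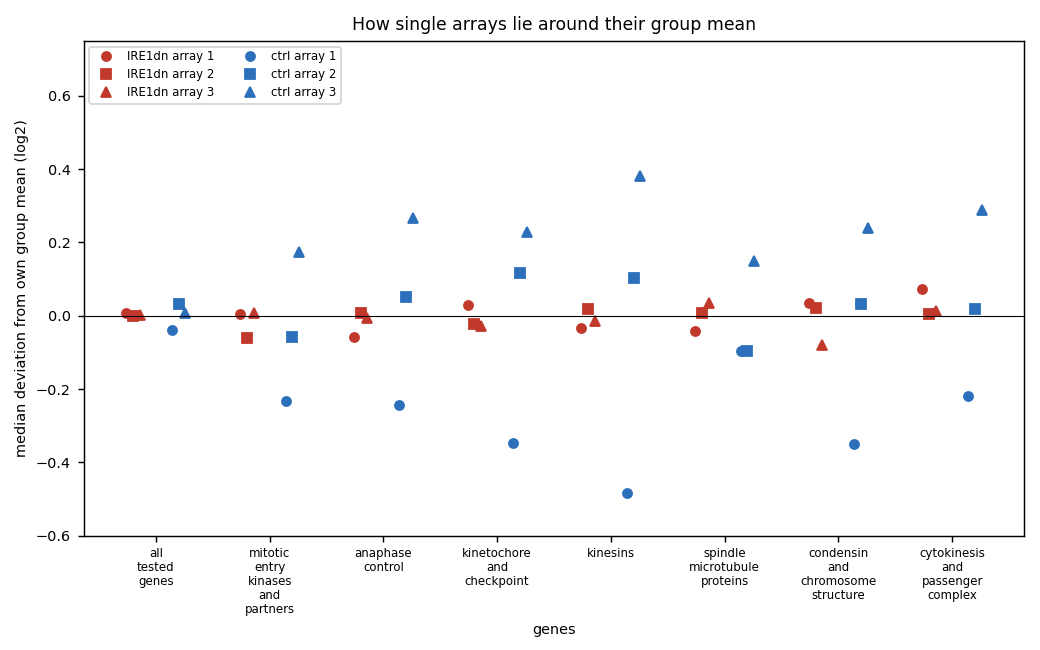
Median deviation of each array from the mean of its own group, in log2 units, over all tested genes and over the genes of each role (red for the IRE1dn arrays, blue for the ctrl arrays). The ctrl arrays spread over most role groups, with ctrl array 1 at -0.48 and ctrl array 3 at 0.38 for the kinesins, while all 6 arrays lie within 0.04 of their group mean over all tested genes.

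The ctrl arrays differed more among themselves than the IRE1dn arrays did, in these genes and over the whole array. On the log2 scale the SD across arrays had a median of 0.12 in IRE1dn cells and 0.26 in ctrl cells, and 43 of the 53 genes (81.1%) had the larger SD in ctrl cells. Over all tested genes the medians were 0.17 in IRE1dn cells and 0.29 in ctrl cells, and 70.9% had the larger SD in ctrl cells. The difference had a common direction. Ctrl array 1 was the lowest of the ctrl arrays for 40 of the 53 genes and ctrl array 3 the highest for 41, while over all tested genes these shares were 40.8% and 34.2%. Their median deviations from the ctrl mean were -0.24 and 0.23, and those of the IRE1dn arrays lay between -0.02 and 0.01. The genes of DNA replication and G1/S shared the direction, with median deviations of -0.15 for ctrl array 1, the lowest for 25 of 42 (59.5%), and 0.15 for ctrl array 3, the highest for 23 of 42 (54.8%). Without ctrl array 3, 14 of the 53 genes rose and 8 fell. CDKN3 newly passed lower and CCNB2 no longer did, and the 8 that newly passed higher were ZWINT, KIF14, SPAG5, NUSAP1, NCAPD2, NCAPG, NCAPH and PRC1. Without ctrl array 1, 5 rose and 10 fell, BUB1 and ECT2 being newly lower. Cyclin B1 did not share this pattern, since ctrl array 1 was its highest ctrl array, at 1236 units. Ctrl array 1 was the highest for 5 of the 53 genes in all, HMMR among them. What set the ctrl arrays apart was not tested.

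The calls were not equally firm. 7 of the 15, those of CCNB1, PLK1, CDC20, PTTG1, HMMR, SMC2 and TOP2A, held in all 18 alternatives that were run. Of those, 5 fell and 2 rose. CCNB1, PLK1, CDC20 and PTTG1 had a single probe set each, and only that of PLK1 was gene-specific. The alternatives on the choice of probe set could therefore not change their estimates. Without IRE1dn array 1 or 3 the count of genes that rose was 3 each, and without IRE1dn array 2 or 3 the count that fell was 5 each.

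**Figure D4:**
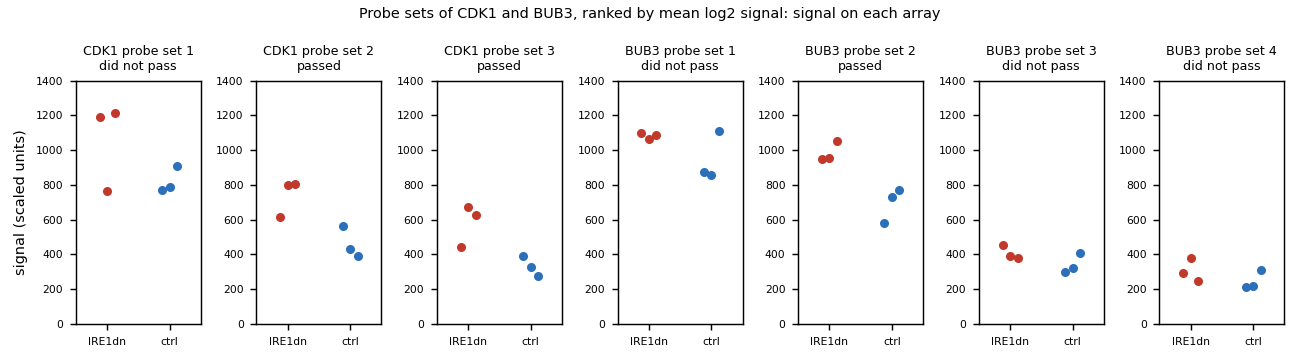
Signal in scaled units on each array for the 3 probe sets of CDK1 and the 4 of BUB3, ranked by mean log2 signal, with IRE1dn arrays in red and ctrl arrays in blue. For CDK1 the first probe set has 1 IRE1dn array at 765 units, below the ctrl points, while in the other two all IRE1dn arrays lie above all ctrl arrays.

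Of the 53 genes 35 had 1 probe set and 18 had several above the filter level. The estimates of a gene's probe sets had the same sign for 17 of those 18, BIRC5 being the exception. The calls were the same for 16, and differed for CDK1 and BUB3.

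Other genes of mitosis, outside the 53, were read from lists chosen by function. Of 30 further G2/M genes tested 8 rose and 0 fell (median log2 change 0.36). WEE1, the kinase that inhibits CDK1, had 299.9, 308 and 284 units in IRE1dn cells and 87.9, 101 and 112 units in ctrl cells, a rise of 1.55 (SE 0.17; limma adjusted p = 0.000284). KIF15, a spindle kinesin, rose by 1.31 and MYBL2, the B-MYB factor, by 1.16. Of 19 further kinetochore and checkpoint genes 7 rose and 0 fell (median 0.34). SPDL1, which brings dynein to kinetochores, had 844, 853 and 729 units in IRE1dn cells and 224, 260.3 and 190.4 units in ctrl cells, a rise of 1.85 (SE 0.17; limma adjusted p = 0.000123). CENPU and KNTC1, of the inner and the outer kinetochore, rose by 1.51 and 1.48.

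Of 9 subunits and activators of the anaphase-promoting complex 1 rose and 2 fell (median log2 change 0.04), CDC23 by 0.55 upwards and ANAPC5 and ANAPC10 with changes of -0.69 and -0.66. Of 9 cohesin genes, which hold sister chromatids together, 3 rose and 0 fell (median 0.51), namely SMC1A (0.88), PDS5B (0.84) and STAG2 (0.65). Both NCAPD3 (0.89) and NCAPG2 (0.63), of condensin II, rose, and NCAPH2 (0.27) did not pass. In all, 21 of these 70 genes rose (30.0%) and 2 fell, where 17.9% of all tested genes rose and 16.5% fell.

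Nearly all called genes of DNA replication and the G1/S transition were higher. Of 42 tested 34 rose (81.0%) and 1 fell (median log2 change 0.90), where 7 of 53 rose and 8 fell among the mitosis and G2/M genes and 17.9% of all tested genes rose. CCNE2, cyclin E2, rose by 1.98, the replication factor MCM10 by 1.79 and the licensing factor CDT1 by 1.78. DBF4, the activator of the replication kinase CDC7, was the 1 that fell, by 0.60. The difference between the lists was not tested. In the promoter windows of that list TTTGAA or TTTAAA lay in 8 of 52 (15.4%), and CCAAT in 28 of 52 (53.8%), beside the 73.3% and 71.7% of the mitosis and G2/M genes.

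**Figure D5:**
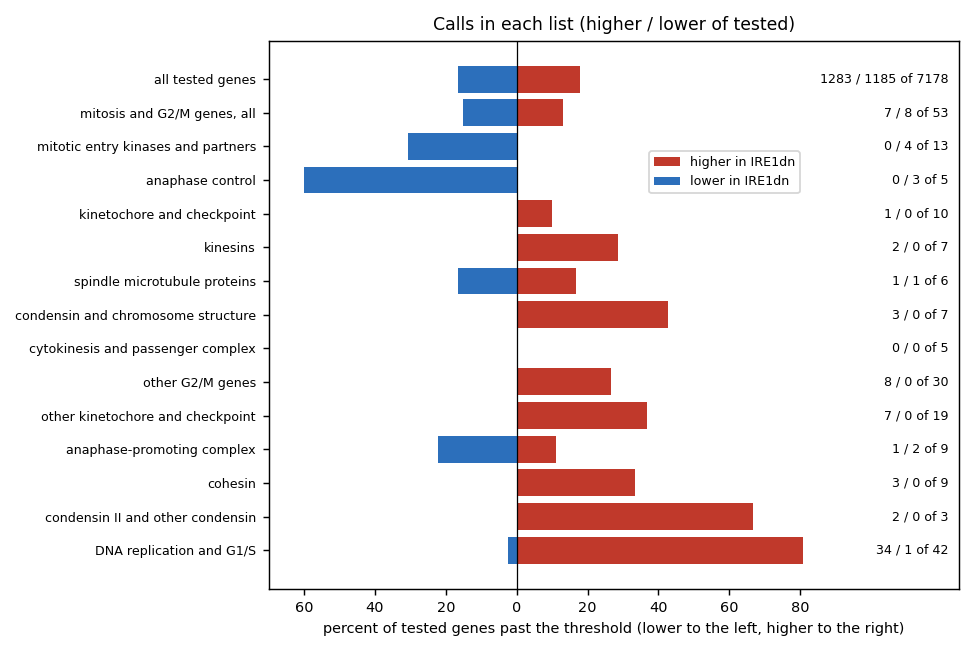
Percent of the tested genes of each list that passed the threshold higher in IRE1dn cells (red, to the right) and lower (blue, to the left), with the counts higher / lower of tested at the right edge. Calls to the left are found mainly for mitotic entry (4 of 13) and anaphase control (3 of 5), and the longest bar to the right is that of DNA replication and G1/S (34 of 42).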

How the data were processed

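Total RNA of 6 U87 samples was hybridised to 1 array each, 3 IRE1dn and 3 ctrl, grouped by their titles. The authors deposited a table of linear signal intensity per probe set, 22277 on each array, and the submitters' processing notes name GCOS 1.2. The deposited intensities were already scaled, with a mean of 100.0 units on each array after trimming 2% at each end, so a change shared by all transcripts would not be seen. Which algorithm summarised the probes is not given in the sources used here. No detection calls were used.

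19064 probe sets had 1 gene symbol by the platform annotation, of which 19052 matched a RefSeq gene (GRCh38.p14) by identifier. Each of 11963 genes was represented by its brightest probe set, by mean log2(signal + 1.75), 1.75 being the 20th percentile of all values. The 7178 genes above the 40th percentile of that mean, equal to a signal of 13.0, were tested two-sided, without covariates, using limma (3.58.1, R 4.3.3) through lmFit and eBayes, whose prior variance followed intensity. Log2 changes were computed here, and Benjamini-Hochberg adjustment ran over all 7178 genes. The script was tested on simulated data. The genes, role groups and lists were chosen with earlier results of these data known. By rule, values on every array are given for CCNB1, CCNB2, CDK1, PLK1, CDC20 and up to 5 genes past the threshold in each role group, and up to 3 are named per further list. KIF23, ECT2 and the further probe sets of CDK1 and BUB3 were singled out after their values were seen. Array values of WEE1 and SPDL1 are given beyond that rule. A fit over all 10824 probe sets above the filter level was added after seeing the data. Replicate numbers are shared between groups, but the deviations of same-numbered arrays correlated at -0.10, 0.06 and 0.02, so the numbers were not taken as pairs. The alternatives changed the pseudocount, the filter, the scaling, the choice of probe set, the variance model and the array weights, added a replicate block, or left arrays out. The number of arrays limits the precision. Sequences are RefSeq's.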

Additional observations from a re-analysis of the deposited data

How the results depend on the processing

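Of 18 alternatives planned for each gene, none changed the sign of the 15 genes past the threshold, though CENPF had no probe set to test among the gene-specific ones. Genes without any gene-specific probe set kept their brightest one in that alternative, which could not change their estimate. The calls of 8 of them, CENPF, KIF11, KIFC1, TPX2, MKI67, CCNB2, NEK2 and UBE2S, ended in at least 1. The number of mitosis and G2/M genes that rose was 3 to 14 and the number that fell 5 to 10 when single arrays were left out, beside 7 and 8 with all arrays. With ctrl array 2 and IRE1dn array 3 both left out, 2 rose and 5 fell, and of all tested genes 655 rose and 548 fell. Of all tested genes 749 to 1403 rose and 692 to 1260 fell with single arrays left out, beside 1283 and 1185. Fewer arrays were fitted in these settings, and calls can end there with little change in the estimate. With single arrays left out, the median log2 change ranged from 0.043 to 0.28 over all 53 genes. In the same settings it was 0.47 to 0.89 for condensin and chromosome structure genes together. It was -0.087 to 0.23 for cytokinesis, -0.22 to -0.071 for mitotic entry and 0.13 to 0.28 for kinetochore genes. For kinesin, spindle and anaphase control genes it was 0.24 to 0.46, 0.19 to 0.28 and -0.85 to -0.69. With the replicate number as a block, 7 rose and 8 fell, KIFC1 no longer passing and KIF14 newly passing, and of all tested genes 1178 rose and 1097 fell. KIFC1 was 0.51 with array weights. With arrays set to equal medians 6 of the mitosis and G2/M genes rose and 10 fell, and 1092 of all tested genes rose and 1351 fell.

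Estimates that changed sign all belonged to genes that did not pass, and with single arrays left out they ranged from -0.087 to 0.23 for AURKB, -0.046 to 0.35 for CDC25C, -0.024 to 0.63 for CENPE, -0.095 to 0.061 for CKS1B, -0.0093 to 0.52 for ESPL1, -0.076 to 0.36 for KIF2C, -0.21 to 0.41 for KIF4A and -0.13 to 0.087 for NDC80. With array weights AURKB was -0.021, CKS1B 0.062 and NDC80 0.027. CKS1B was 0.023 with quantile normalization, CDC25C was -0.022 as the mean of its probe sets, and BIRC5 was 0.37 on its gene-specific probe set, the one ranked 3. NDC80 was 0.15 with ctrl array 2 and IRE1dn array 3 both left out. The cause of these changes was not tested. Of the 38 genes that did not pass, 15 passed in at least 1 alternative or on a further probe set.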
